A study of Mus musculus with 45 samples.

Results

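Axin2, Nkd1, Sp5, T, Cdx1, Lef1, Tcf7, Tcf7l1, Tcf7l2 and Ctnnb1, a set of genes that carry, limit or answer canonical Wnt signalling, were followed through the reprogramming of mouse neural progenitor cells to induced pluripotent stem cells. They were chosen by name, as textbook components and targets of the pathway, with earlier results of these data known. All 10 have a row among the 23575 genes of the deposited table. Long-read RNA sequencing gave 45 libraries. Progenitors had been derived from O4G, an Oct4-GFP reporter line of embryonic stem cells (ESC), and carried either no reprogramming factors (labelled WT) or a doxycycline-inducible set of Oct4, Klf4, Myc and Sox2 (OKMS) or of Oct4, Klf4 and Sox2 (OKS). The factor-carrying cells are labelled OKMS-Luciferase-AS and OKS-Luciferase-AS. Factor-carrying and WT cells were then grown in FBS-LIF, a serum medium with leukaemia inhibitory factor, with 1 µg/mL doxycycline, and some factor-carrying cultures were moved to 2i-LIF. That medium holds 3 µM CHIR-99021, an inhibitor of the kinase GSK3, together with 1 µM PD0325901, an inhibitor of the kinase MEK, and LIF.

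The groups used here were ESC in 2i-LIF (lines O4G, R1 and R1-Clone3, a clone of R1, all WT), progenitors in their own medium (WT, OKMS and OKS), WT cells after 2 days in FBS-LIF with doxycycline, and OKMS or OKS cells between days 2 and 20 in FBS-LIF with doxycycline. Reprogrammed cells in 2i-LIF were sampled at day 14 or 20, after a move at day 6, in the first library set, and at day 18 in the second, for which the day of the move is not given in the sources used here. Library set R9 (22 libraries, direct cDNA of poly(A) RNA) and library set R10 (23 libraries, PCR-amplified cDNA of total RNA) differ in RNA input, chemistry and flow cell, so levels were compared within a set. Each system, day and medium of reprogramming is 1 library per set. Every ESC library came from 2i-LIF and every progenitor library from progenitor medium, so cell type and GSK3 inhibition cannot be told apart between them. Line differed too, since progenitors derive from O4G and the ESC were of O4G, R1 and R1-Clone3, and its part was not tested. The 2 media of reprogramming also differ in serum, the MEK inhibitor and doxycycline. Replicate numbers in the labels do not say whether samples were separate cultures, so p-values measure the spread between these samples, which may be technical. In bulk RNA, fewer cells of a type and less RNA per cell cannot be told apart.

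In canonical Wnt signalling, secreted ligands bind Frizzled and Lrp receptors and halt the destruction complex, in which Axin and APC hold β-catenin for phosphorylation by GSK3 and degradation. Stabilised β-catenin, the product of Ctnnb1, enters the nucleus and binds the TCF/LEF factors encoded by Tcf7, Lef1, Tcf7l1 and Tcf7l2, and GSK3 inhibitors reach the same step without a ligand. Axin2 and Nkd1 are targets that dampen the pathway, while Sp5, T (brachyury) and Cdx1 are targets that encode transcription factors. In mouse ESC, Tcf7l1 acts mainly as a repressor of pluripotency genes, and relief of that repression is the best known route by which GSK3 inhibition sustains self-renewal.

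Gene-assigned reads ran from 447990 to 1390424 per R9 library (median 814718) and from 566599 to 4236442 per R10 library (median 2342551). Levels are in CPM, the usual depth-scaled unit, the reads of a gene scaled to the gene-assigned reads of its library, and 1 read was worth 1.76 CPM in the shallowest R10 library. In the shallowest R9 library, OKS in serum at day 10, 1 read was worth 2.23 CPM. Cell types were checked by summed marker levels. A list of 7 stem cell markers summed to between 11230 and 13817 CPM in the R10 ESC and to between 15.4 and 28.0 CPM in the R10 progenitors, and a list of 7 progenitor markers to between 5096 and 6705 CPM in the R10 progenitors and to between 7.01 and 47.1 CPM in the ESC. The R10 ESC hold 1 R1 library that, unlike the other 6, carries no n number in its title; it stood apart, with 0.124% of reads on mitochondrial genes against 1.81% to 2.35%. The 4 R10 progenitor libraries had between 0.153% and 1.12%, below the 6 numbered ESC libraries, and the part of RNA quality in the differences was not tested. Differences below are limma log2 differences of CPM + 1, which understate the change of low genes; calls needed a log2 difference of at least 1 either way and a Benjamini-Hochberg p, adjusted over every gene tested, below 0.05.

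ESC in 2i-LIF held more Sp5, T, Cdx1, Tcf7 and Lef1 RNA than progenitors and less Tcf7l2 and Nkd1 in the R10 libraries. Gene reads of Ctnnb1 were also higher in R10 ESC, but most lie on a short 3′ model, the models that hold its start codon were lower, and R9 gave a log2 difference of -0.41. All 10 genes passed the filter on low values (at least 1 CPM in 4 libraries), and 8 of 10 were called, 6 higher and 2 lower, where 45.8% of 15415 tested genes were called (22.4% higher, 23.5% lower). Of these, 4 (Sp5, T, Cdx1 and Lef1) passed the filter only through their ESC libraries, so that part of the count is a description. The median log2 difference of the 10 members was 1.35, beside 0.01 for all genes tested. Leaving out any 1 of the 11 libraries left 8 of 10 called, though every such fit rests mostly on the 6 numbered ESC libraries. Axin2, the member most often used as a readout of the pathway, did not reach the 2-fold threshold, and neither did Tcf7l1. With the R1 library without an n number as the only ESC library, T failed the filter. The log2 difference was then 1.31 for Lef1, -0.38 for Ctnnb1 and 1.72 for Tcf7l1, beside 3.01, 1.08 and 0.46 with all 7. Nkd1, Sp5, Cdx1, Tcf7 and Tcf7l2 kept their directions, and Axin2 was at -0.04, beside 0.63.

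Axin2 encodes a scaffold of the destruction complex that is itself a β-catenin target, a negative feedback loop, and lies at chr11:108920349-108950783 on the plus strand of GRCm38, overlapping Gm11670 on the opposite strand. Across the 7 R10 ESC libraries its level ran from 17.6 to 41.2 CPM with a median of 30.1 CPM. The OKMS progenitors had 23.7 CPM, the OKS progenitors 19.9 CPM and the WT progenitors 15.9 and 14.3 CPM. The groups overlapped: the R1 library without an n number (17.6 CPM) lay below 2 progenitor libraries, and the lowest of the 6 numbered ESC libraries (20.5 CPM) below 1. The log2 difference was 0.63 (SE 0.23, limma adjusted p = 0.0215), under the fold required for a call. In R9 the difference was 0.05 (SE 0.44, limma adjusted p = 0.940), with 9.47 and 3.72 CPM in the O4G and R1 ESC and between 4.01 and 8.08 CPM in the 4 progenitor libraries.

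Nkd1, an inhibitor that binds Dishevelled, was lower in ESC. Its R10 level was between 0.387 and 1.49 CPM in ESC (median 1.30 CPM, at most 5 reads in a library). Progenitors had 7.03 CPM (OKMS), 4.09 CPM (OKS) and 6.03 and 5.45 CPM (WT), so that every progenitor library lay above every ESC library. The log2 difference was -1.65 (SE 0.23, limma adjusted p = 9.35e-06). R9 gave the same order, with 2.84 and 2.79 CPM in ESC and between 10.7 and 30.4 CPM in progenitors (log2 difference -2.30, limma adjusted p = 0.00576). The 2 feedback inhibitors of the pathway thus stood on different sides of 0 in R10.

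Sp5, an Sp-family zinc finger factor, had reads in every R10 ESC library and in no progenitor library. ESC had between 12.0 and 26.1 CPM (median 17.9 CPM, 31 to 111 reads), and all 4 progenitor libraries were at 0, as were all 4 R9 progenitor libraries. Against the limit of 3 reads over the progenitor group, which covers counting error only, Sp5 was at least 65.2-fold higher in R10 ESC and at least 9.25-fold higher in R9 ESC, which had 8.52 and 9.31 CPM. The limma log2 difference was 4.24 (SE 0.22, adjusted p = 1.99e-10) in R10 and 3.31 (adjusted p = 1.20e-04) in R9. The R10 ESC libraries thus all lay above the progenitors with no overlap.

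T, the mesoderm factor brachyury, had between 0.373 and 15.1 CPM in R10 ESC (median 5.42 CPM), and in the progenitors a single read in 1 WT library (0.318 CPM). The lowest ESC value, also 1 read, was that of the library without an n number, and the groups did not overlap (log2 difference 2.55, SE 0.47, limma adjusted p = 1.90e-04). In R9 ESC 1 read was found in the R1 library and none in O4G, and T failed the filter. Cdx1, a caudal-type homeobox factor, had between 9.28 and 46.5 CPM in R10 ESC (median 15.7 CPM), with a single read in 1 progenitor library (0.287 CPM). Its log2 difference was 4.11 (SE 0.35, limma adjusted p = 4.64e-08). R9 ESC had 29.4 and 12.1 CPM of Cdx1 and R9 progenitors none, at least 21.5-fold higher in ESC.

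The promoters of Sp5 and T are shown because only these 2, of the members whose promoters were read, hold a TCF/LEF core motif in the 250 bases before the annotated start (RefSeq, GRCm38.p6). The motifs searched, on both strands, were CTTTGAT, found in 3.21% of 32851 mouse promoter windows of the same length, and CTTTGAA, found in 4.46%. The Sp5 window is chr2:70474673-70474922 and the T window chr17:8434173-8434422, both written 5′ to 3′ on the plus strand, the strand of each gene, with the match in capitals: CTTTGAT itself in Sp5, 104 bases before the start, and CTTTGAA read on the minus strand in T, 235 bases before the start. A match describes these letters and is not a measured binding site.
Sp5: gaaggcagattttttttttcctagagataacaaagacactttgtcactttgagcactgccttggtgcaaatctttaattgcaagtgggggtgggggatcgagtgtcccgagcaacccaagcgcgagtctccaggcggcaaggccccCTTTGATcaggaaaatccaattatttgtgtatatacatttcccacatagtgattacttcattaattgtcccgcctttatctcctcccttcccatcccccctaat
T: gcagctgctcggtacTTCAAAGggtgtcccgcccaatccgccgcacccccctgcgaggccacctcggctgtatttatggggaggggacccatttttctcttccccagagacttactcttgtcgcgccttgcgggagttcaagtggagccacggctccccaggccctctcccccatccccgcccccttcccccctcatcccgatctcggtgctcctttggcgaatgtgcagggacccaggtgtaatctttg
Neither gene had more than 1 read in a progenitor library, whereas both had reads in every R10 ESC library. T had at most 1 read in an R9 ESC library and was at 0 in all 5 reprogrammed libraries in 2i-LIF. Lef1, with neither motif in its windows, was also higher in R10 ESC. A link between motif and level was not tested.

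Among the TCF/LEF factors, Tcf7 and Lef1 were higher in R10 ESC and Tcf7l2 lower. Tcf7, which encodes TCF1, a factor with activating and shorter inhibitory isoforms, had between 24.6 and 34.3 CPM in ESC (median 32.1 CPM). Progenitors had 8.35 (OKMS), 7.01 (OKS), 10.2 and 10.9 CPM (WT), with no overlap (log2 difference 1.62, SE 0.17, limma adjusted p = 5.41e-07). R9 gave 50.2 and 40.0 CPM in ESC against between 5.06 and 12.6 CPM (log2 difference 2.40, limma adjusted p = 0.00244). The ESC level of Tcf7 was thus the higher of the pair in both library sets.

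Lef1 encodes the founding member of the family, usually an activator together with β-catenin. In R10 ESC it ran from 2.99 to 33.9 CPM (median 14.1 CPM), highest in O4G (33.9 and 23.7 CPM) and lower in R1-Clone3 (10.7 and 5.03 CPM). Progenitors had 0.439, 1.17, 0 and 1.15 CPM (OKMS, OKS, WT and WT). The groups did not overlap, and the log2 difference was 3.01 (SE 0.49, limma adjusted p = 5.58e-05). R9 libraries did not show it: ESC had 0 and 0.931 CPM, and progenitors between 0 and 2.67 CPM (log2 difference -0.38, limma adjusted p = 0.673). Lef1 was the only member to pass the limma test of the difference between library sets (interaction 3.40 on the log2 scale, SE 0.86, adjusted p = 0.0330), where 3.79% of genes passed, and it did not pass with a pseudocount of 0.25 (adjusted p = 0.0697). At an unadjusted p under 0.05 there were 5 members, Sp5, T, Tcf7, Lef1 and Ctnnb1, the last with an interaction of 1.49 (SE 0.44, limma adjusted p = 0.0598). Without the share of all genes at that unadjusted p, nothing is read from the count. The R10 library without an n number alone against the progenitors gave Lef1 a log2 difference of 1.31 (limma adjusted p = 0.146).

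Tcf7l2, which encodes TCF4, was higher in progenitors than in ESC. Progenitors held 228 (OKMS), 213 (OKS), 198 and 188 CPM (WT) in R10, against between 20.6 and 45.6 CPM in ESC (median 29.4 CPM). The log2 difference was -2.74 (SE 0.17, limma adjusted p = 1.53e-09), and in R9, where ESC had 6.63 and 9.31 CPM and progenitors between 48.1 and 59.2 CPM, it was -2.61 (limma adjusted p = 1.68e-04). Neither set had overlapping groups. Tcf7l1, the family's repressor, ran from 32.1 to 118 CPM in R10 ESC (median 48.8 CPM), with 29.4, 29.8, 53.0 and 33.3 CPM in the OKMS, OKS, WT and WT progenitors. Its groups overlapped (log2 difference 0.46, SE 0.29, limma adjusted p = 0.174). The highest ESC value belonged to the library without an n number. R9 ESC had 44.5 and 91.2 CPM and progenitors between 12.0 and 33.7 CPM, a called log2 difference of 1.503 (limma adjusted p = 0.0370). The call was lost in 4 of 6 fits that left out 1 library, which gave differences from 0.99 (without R1) to 2.01 (without O4G), and without a filter (adjusted p = 0.0522).

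**Figure D1:**
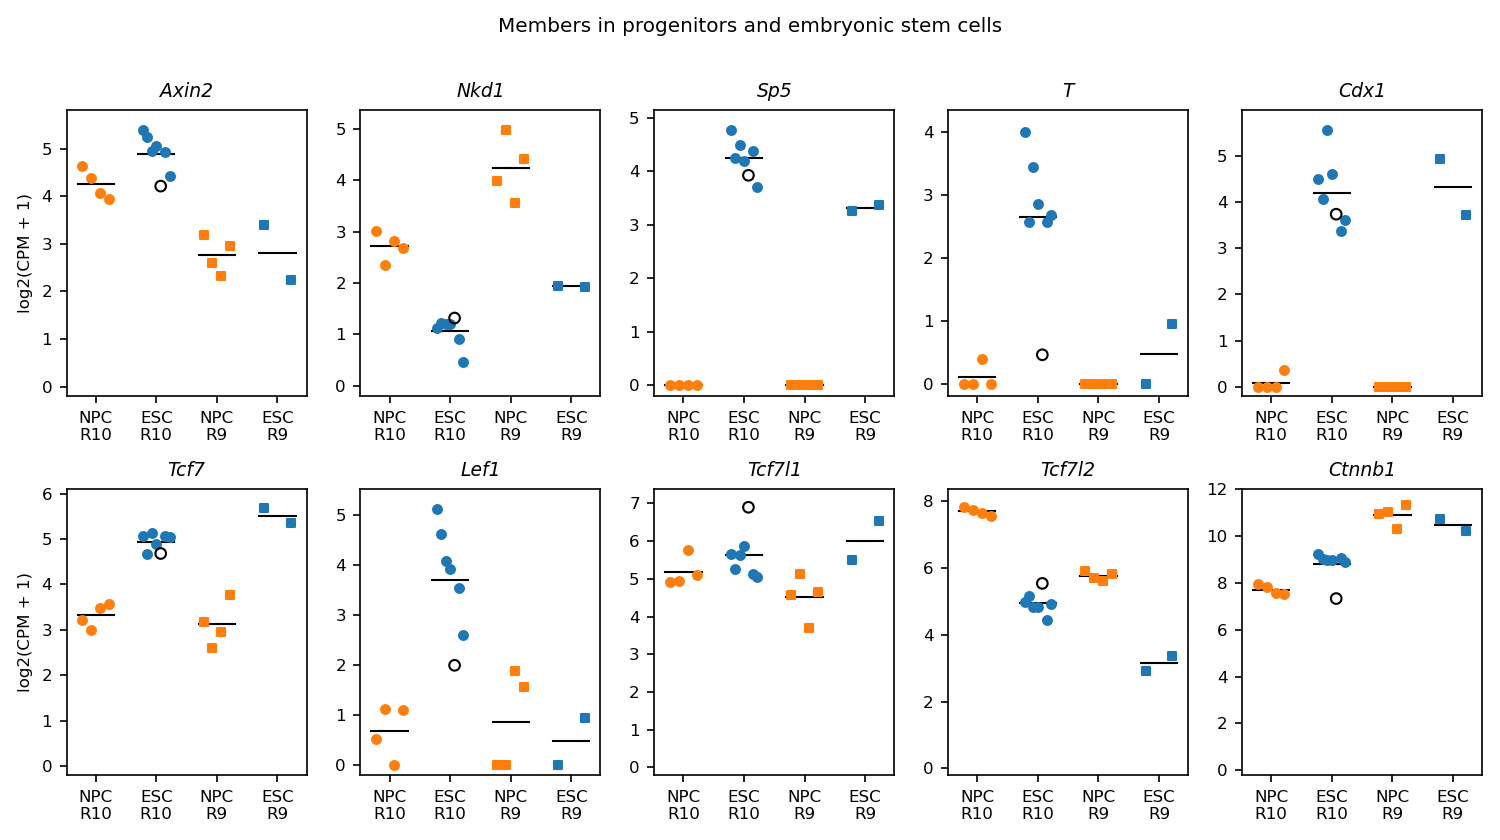
Levels of the 10 genes as log2(CPM + 1) in progenitors (NPC, orange) and ESC (blue) of the R10 and R9 libraries; each point is a library, bars are group means, and the open circle is the R1 library without an n number. Sp5 was at 0 in all 8 progenitor libraries, Tcf7l2 was higher in progenitors in both sets, and Lef1 separated the groups in R10 only.

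Ctnnb1 encodes β-catenin, whose activity is set mainly by protein stability. It had between 159 and 594 CPM in R10 ESC (median 506 CPM) and 243, 223, 187 and 185 CPM in the OKMS, OKS, WT and WT progenitors. The 6 numbered ESC libraries lay above all progenitors and the remaining library, at 159 CPM, below them. The log2 difference was 1.08 (SE 0.27, limma adjusted p = 0.00261), and with that library as the only ESC library it was -0.38. R9 ESC had 1687 and 1194 CPM against between 1250 and 2521 CPM in progenitors (log2 difference -0.41, limma adjusted p = 0.304). In R9, 6 of the 9 genes that could be tested were called (4 higher, 2 lower), where 36% of all genes tested were. Sp5 and Cdx1, at 0 in all R9 progenitor libraries, passed the filter only through the 2 ESC libraries, so that part of the count is a description. Leaving out the R9 O4G ESC library left 3 of these 6 called, Sp5, Cdx1 and Tcf7l2.

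Most of the Ctnnb1 signal was assigned to 1 short transcript model. A single-exon model of 451 bases at the 3′ end of the gene (chr9:120960078-120960528, annotated as non-coding) held on average over libraries 97.6% of the gene's TPM in R10 ESC, 88.6% in R10 progenitors, 99.8% in R9 ESC and 99.7% in R9 progenitors. TPM, the usual length-scaled unit of transcript level, divides by length, which raises the weight of short models. With each model weighted by its length, the 3′ model held 97.0% in R10 ESC, 55.0% in R10 progenitors, 98.7% in R9 ESC and 98.4% in R9 progenitors, and start codon models 2.26% and 39.5% in R10 ESC and progenitors. The 3′ model lies within the span of Ulk4 on the opposite strand; whether counting used strand is not given in the sources used here. Models that hold the start codon, 22 of 45, were the reverse of the gene total in R10. They summed to 5.08 ± 1.12 TPM (SD, n = 7; 2.92 to 6.11 TPM) in ESC and to 14.5 ± 2.51 TPM (SD, n = 4; 12.1 to 17.97 TPM) in progenitors. In R9 they summed to 7.06 and 8.16 TPM in ESC and to between 10.9 and 24.9 TPM in progenitors. Start codon models were thus lower in every ESC library than in every progenitor library of the same set, with no test run on them. For the library without an n number the sum was 6.11 TPM, the highest of the 7. Start codon models held 11.4% of its Ctnnb1 TPM, within the 6.50% to 14.1% of the R10 progenitor libraries. In the 6 numbered ESC libraries they held 0.213% to 0.508%, so the R10 ESC averages above join unlike libraries.

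**Figure D2:**
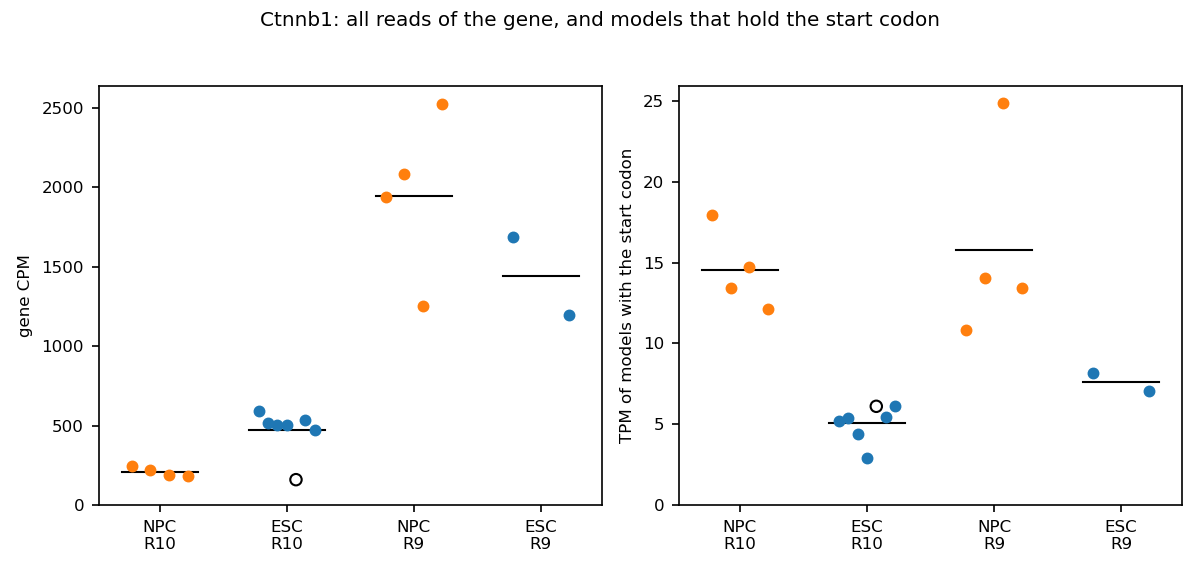
Ctnnb1 as all gene reads (left, CPM) and as summed models that hold the start codon (right, TPM), for progenitors (NPC, orange) and ESC (blue); points are libraries, bars are group means, and the open circle is the R1 library without an n number. On the left the R10 ESC lie mostly above the progenitors, and on the right, at 2.92 to 6.11 TPM, they lie below the progenitors at 12.1 to 17.97 TPM.

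The share of TPM on models that hold the start codon differed among the other members. For Axin2, 6 of 10 models hold the start codon, and they carried 8.00% of the gene's TPM in R10 ESC and 13.4% in R10 progenitors, or 32.5% and 34.2% when each model was weighted by its length. For Tcf7l1, start codon models (7 of 13) summed to 11.6 ± 2.48 TPM (SD, n = 7) in R10 ESC and 5.43 ± 2.15 TPM (SD, n = 4) in progenitors. For Tcf7l2 they summed to 5.57 ± 4.15 TPM (SD, n = 7) and 35.7 ± 3.31 TPM (SD, n = 4), the same order as its gene reads. Lef1 start codon models, 2 of 6, held 72.3% of its TPM in R10 ESC, while in the OKMS cells of days 2 to 6 they held 10.3% in R10 and 0% in R9. Reads called Lef1 in the early OKMS cells were therefore mostly assigned to models without the annotated start codon.

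Counts for the lists around the 10 genes in R10 ESC stand beside 22.4% of all genes called higher and 23.5% called lower. Of 5 Wnt ligands tested, 3 fell and 1 rose (list median log2 difference -3.89, all genes 0.01): Wnt7b, a ligand of the nervous system, had 0.945 ± 1.10 CPM (SD, n = 7) in ESC and 44.8 ± 29.5 CPM (SD, n = 4) in progenitors, a log2 difference of -4.50, followed by Wnt7a at -4.11 and Wnt5a, known for non-canonical signalling, at -3.89, while Wnt6, at 0 in progenitors, had 1.27 ± 0.892 CPM (SD, n = 7) in ESC. Of 13 receptors and co-receptors, 7 fell and 2 rose (list median -1.10), led by the Frizzled genes Fzd1 at -4.31, Fzd3 at -3.34, Fzd2 at -3.17 and Fzd4 at -3.16. Of 6 secreted antagonists, 3 rose and 1 fell (list median 0.79). Notum, a secreted enzyme that inactivates Wnt proteins and is itself a Wnt target, had 33.2 ± 16.4 CPM (SD, n = 7) in ESC and 0.378 ± 0.448 CPM (SD, n = 4) in progenitors, a log2 difference of 4.54. Sfrp1 rose by 1.55, Dkk1 by 1.11, and Sfrp2 fell by 1.65. Of 3 receptor turnover genes of the R-spondin arm limma called 0, with 1 at an unadjusted p under 0.05 and 1 called by edgeR (list median 0.70).

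Inside the cell, 5 of 16 genes of the destruction complex and signal transducers fell and none rose (list median -0.45), where 23.5% of all genes were called lower. Dvl1 was at -1.80, Dvl3 at -1.50, Amer1 at -1.45 and Csnk1e at -1.31. Of 15 nuclear cofactors, 6 fell and none rose (list median -0.34): the corepressor Tle2 at -4.53, Ctnnbip1, an inhibitor of β-catenin binding to TCF, at -2.29, Ctbp1 at -2.05 and the coactivator Bcl9l at -2.04. Of 9 other direct targets, 4 rose and 2 fell (list median 0.63). Myc had 6.00 ± 4.49 CPM (SD, n = 7) in ESC and 161 ± 33.9 CPM (SD, n = 4) in progenitors (log2 difference -4.85), Ccnd1 fell by 1.96, Mycn rose by 3.86, and Bmp4, at 0 in progenitors, had 4.36 ± 3.15 CPM (SD, n = 7) in ESC. All 8 genes known as repressed by Tcf7l1 in stem cells rose (list median 6.42), with Nanog at 9.12, Tfcp2l1 at 7.30, Tbx3 at 6.66 and Tcl1, at 0 in progenitors, with 112 ± 34.2 CPM (SD, n = 7) in ESC. The list counts and medians given for ESC are descriptions, since they include genes that passed the filter only through the group in which they are high. Through ESC these were 5 of the 8 repressed genes (Nanog, Klf2, Tfcp2l1, Tbx3 and Tcl1), and also Wnt6, Dkk1, Notum, Apcdd1, Msx2, Bmp4 and Cdh1. Likewise Wnt5a, Wnt7a, Fzd1, Tle2 and Ctnna2, under 1 CPM in every ESC library, passed only through the progenitors. The 8 repressed genes are also pluripotency genes for the most part, 3 of them being on the stem cell marker list. Of 6 cadherin and adhesion partners of β-catenin, 2 rose and 2 fell: Cdh1 rose by 6.38 and Jup by 2.20, while Cdh2 fell by 5.44 and Ctnna2 by 1.51.

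The 5 pairs of reprogrammed cultures sampled in both media on the same day compare 2i-LIF with serum within cells of 1 origin. All 5 pairs derive from line O4G, and pairs of 1 system (OKMS or OKS) carry the same system label. The R9 OKMS pairs of days 14 and 20 also share a library set. The labels do not say whether pairs were separate reprogramming runs, but the fit treats all 5 pairs as independent. Of 9 members that could be tested, 1 was called, Lef1, which was lower in 2i-LIF, where 12.3% of 14935 genes were called (5.95% higher, 6.32% lower). That share is near the background and nothing is read from the count. The members' median log2 difference was -0.24, beside -0.03 for all genes tested. At an unadjusted p under 0.05 there were 4, Cdx1, Lef1, Tcf7l1 and Tcf7l2. No share of all genes at that unadjusted p is given here, so nothing is read from this number either. Counts were small, often under 10 reads for a target gene in a library.

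Lef1 was lower in 2i-LIF in 5 of 5 pairs. In R10 at day 18, OKMS cells had 0 CPM in 2i-LIF and 4.45 CPM in serum, and OKS cells 0 and 16.6 CPM. In R9, OKMS cells had 0 and 8.44 CPM at day 14 and 1.07 and 2.46 CPM at day 20, and OKS cells 1.16 and 7.90 CPM at day 20. All 2i-LIF values lay below all serum values, which rest on 2 to 13 reads each, and Lef1 passed the filter only through its serum libraries, so its call is a description. The log2 difference was -2.52 (SE 0.53, limma adjusted p = 0.00345). Without the 2 OKS pairs, an alternative chosen after seeing the data, the log2 difference was -2.14 (limma adjusted p = 0.0876), and it was -2.01 (0.0779) within R9 pairs and -3.29 (0.0987) within R10 pairs. Markers of other cells moved with the medium in the same pairs. Mesenchymal markers summed to between 12.3 and 26.6 CPM in 2i-LIF and between 75.7 and 439 CPM in serum (list median log2 difference -1.22), and the list median of progenitor markers was -1.43. Their part in the Lef1 difference was not tested.

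Axin2 was not called between media. In OKMS pairs it was 3.53 CPM in 2i-LIF against 2.97 CPM in serum (R10 day 18; 2 reads each), 6.11 against 4.22 CPM (R9 day 14; 5 and 4 reads) and 3.22 against 1.23 CPM (R9 day 20; 3 reads and 1 read). OKS pairs had 3.13 against 6.40 CPM (R10 day 18; 2 and 5 reads) and 2.33 against 7.90 CPM (R9 day 20; 2 and 11 reads). The CPM was higher in 2i-LIF in the 3 OKMS pairs, 1 of which has equal reads in both media, and lower in the 2 OKS pairs (log2 difference -0.14, SE 0.49, limma adjusted p = 0.895). Nkd1 (log2 difference -0.83) and Sp5 (-0.83) were likewise lower in the OKS pairs, and the OKMS pairs held at most 1 read of either in a library. edgeR on the recovered reads called Sp5 as well as Lef1.

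T was at 0 in all 5 libraries in 2i-LIF and in the 3 OKMS serum libraries. In OKS serum cells it had 42.3 CPM at day 18 of R10 (33 reads) and 58.9 CPM at day 20 of R9 (82 reads), the highest values in any of the 45 libraries. A list of primitive streak and mesoderm markers, 5 of 8 with a row, summed to 125 CPM in that R10 library and 52.5 CPM in that R9 library, against 15.6 CPM and 27.9 CPM in the matching 2i-LIF cultures. The order was the reverse in the OKMS pairs, with 5.29 CPM in 2i-LIF and 2.97 CPM in serum (R10 day 18), 30.5 and 7.39 CPM (R9 day 14) and 35.5 and 3.69 CPM (R9 day 20), and the R9 ESC, with at most 1 read of T, had 55.9 and 43.7 CPM of the list. Its part in the T values was not tested. Cdx1 was higher in 2i-LIF in 4 of 5 pairs: 1.76 against 0 CPM (R10 OKMS), 10.9 against 2.56 CPM (R10 OKS), 33.0 against 5.28 CPM (R9 OKMS day 14) and 5.37 against 2.46 CPM (R9 OKMS day 20). The exception was R9 OKS at day 20, with 6.98 against 15.1 CPM. The log2 difference was 1.10 (SE 0.51, limma adjusted p = 0.169) and was not called.

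Tcf7l1 was 37.0 CPM in 2i-LIF and 22.3 CPM in serum in the R10 OKMS pair, and 59.4 and 60.2 CPM in the R10 OKS pair. R9 OKMS cells had 95.3 and 40.1 CPM at day 14 and 68.8 and 28.3 CPM at day 20, and R9 OKS cells 74.5 and 45.3 CPM. It was higher in 2i-LIF in 4 of 5 pairs and the arms overlapped (log2 difference 0.78, SE 0.23, limma adjusted p = 0.0293), short of the fold for a call. Within the 3 R9 pairs it was called (log2 difference 1.06, limma adjusted p = 0.0226). Tcf7l2 was lower in 4 of 5 pairs (log2 difference -1.09, SE 0.44, limma adjusted p = 0.111), with 12.9 ± 12.0 CPM (SD, n = 5) in 2i-LIF and 22.5 ± 16.5 CPM (SD, n = 5) in serum. Tcf7 had 24.0 ± 13.3 CPM (SD, n = 5) and 19.8 ± 9.69 CPM (SD, n = 5; limma adjusted p = 0.755), and Ctnnb1 873 ± 333 CPM (SD, n = 5) and 1078 ± 465 CPM (SD, n = 5; limma adjusted p = 0.379).

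**Figure D3:**
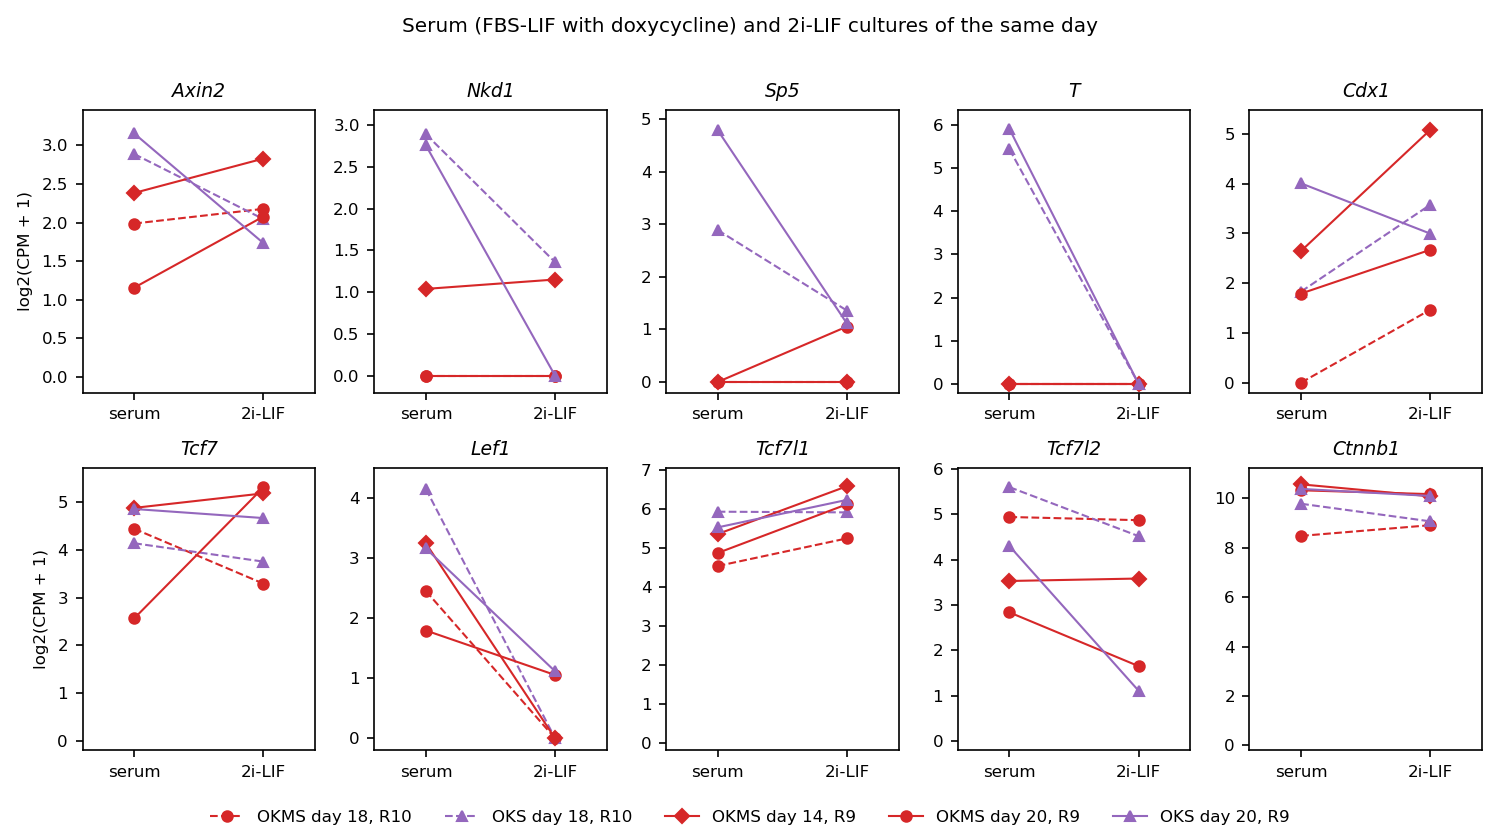
Each line joins the serum and 2i-LIF cultures of 1 system, day and library set, as log2(CPM + 1); red is OKMS, purple is OKS, dashed lines are R10 and solid lines R9. Lef1 falls along all 5 lines, T leaves 0 only in the 2 OKS serum cultures, and Axin2 lies higher in 2i-LIF on the 3 OKMS lines and lower on the 2 OKS lines.

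Of the neighbouring lists, 7 of 8 genes known as repressed by Tcf7l1 rose in 2i-LIF in the same pairs and none fell. The list median was 1.47 (all genes -0.03), and 5.95% of all genes were called higher. Nanog had 1204 ± 128 CPM (SD, n = 5) in 2i-LIF and 262 ± 36.8 CPM (SD, n = 5) in serum, a log2 difference of 2.20 (limma adjusted p = 8.87e-08), followed by Tfcp2l1 at 2.09, Klf2 at 1.58 and Tcl1 at 1.47. The stem cell marker list, which shares 3 genes with the repressed genes, had 5 of 7 higher (list median 1.29), and no test was run between the lists. Of 16 genes of the destruction complex and signal transducers limma called 0 (4 at an unadjusted p under 0.05, 1 called by edgeR), and of 15 nuclear cofactors 0 (5 at an unadjusted p under 0.05, 0 by edgeR). Of 4 ligands, Wnt7b fell by 1.79 and Wnt9a by 1.74, and of 13 receptors Fzd7 fell by 1.94. Notum, among 7 antagonists, rose from 7.69 ± 6.11 CPM to 32.1 ± 17.2 CPM (SD, n = 5 each; log2 difference 2.10). Lgr6, an R-spondin receptor, was at 0 in all 5 libraries in 2i-LIF and had 7.09 ± 1.69 CPM (SD, n = 5) in serum. Lgr6 passed the filter only through its serum libraries, so its call is a description. Of 9 other direct targets, Myc fell by 3.64, Bmp4 by 2.22 and Ascl2 by 1.53, and of 5 cadherin and adhesion partners Cdh2 fell by 2.11. OKMS cells carry a Myc transgene and doxycycline was listed in serum only, and whether transgene reads were counted as Myc is not given in the sources used here.

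Between reprogrammed cells and ESC, both in 2i-LIF, 2 of 10 members were called, Axin2 and Sp5, both lower in the reprogrammed cells, where 3.36% of 14946 genes were called (1.87% higher, 1.49% lower). The ESC libraries are those described above, with library set as a term in the fit and no term for line. All reprogrammed cells derive from O4G, whereas the ESC include R1 and R1-Clone3, and the part of line was not tested. Sp5 passed the filter (at least 1 CPM in 5 libraries) only through its ESC libraries, as did Nkd1, T and Lef1, so the Sp5 call is a description. At an unadjusted p under 0.05 there were 7, these 4 among them, all lower, and the members' median was -1.13, beside -0.07 for all genes. Both this count and the median are therefore descriptions. The share of all genes at that unadjusted p is not given here, so nothing is read from the count. Axin2 had between 2.33 and 6.11 CPM in the 5 reprogrammed libraries (log2 difference -1.83, SE 0.37, limma adjusted p = 0.00761). Its R10 values were 3.53 and 3.13 CPM, 2 reads each, against at least 17.6 CPM in R10 ESC, whereas in R9 the 2.33, 3.22 and 6.11 CPM overlapped the ESC values of 3.72 and 9.47 CPM. Without the R10 OKS library the log2 difference was -1.49 and the adjusted p 0.0658, and with R9 libraries alone -0.60 and 0.724. Mesenchymal markers summed to between 12.3 and 26.6 CPM in the reprogrammed cells and between 4.47 and 15.4 CPM in ESC (list median log2 difference 1.01, 1 of 3 higher). Progenitor markers summed to 68.8 and 60.5 CPM in the R10 and R9 OKS cultures and to between 1.76 and 21.98 CPM in the OKMS cultures, against 7.01 to 47.1 CPM in R10 ESC and 17.99 and 23.3 CPM in R9 ESC. Their part in the differences was not tested.

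Sp5 had 0 and 1.56 CPM in R10 reprogrammed cells (OKMS and OKS) and 0, 1.07 and 1.16 CPM in R9 (OKMS day 14, OKMS day 20 and OKS day 20), at most 1 read in a library. No value reached the 8.52 CPM of the lowest ESC library (log2 difference -3.14, SE 0.33, limma adjusted p = 4.52e-06). Within R9 the difference was -2.59 with an adjusted p of 0.0838. Tcf7 (log2 difference -0.998, SE 0.21, limma adjusted p = 0.00850) fell just short of the fold for a call, and T (-1.71, adjusted p = 0.0613), Lef1 (-1.98, adjusted p = 0.0796) and Cdx1 (-1.27, adjusted p = 0.126) did not pass. With R10 libraries alone, T, Tcf7 and Lef1 joined the called members, 5 in all, where genes called in all rose from 502 to 1438. T and Lef1 were at 0 in both R10 reprogrammed libraries and passed the filter only through ESC, so these calls are descriptions. Without the R9 OKMS library of day 14, Cdx1 and Tcf7 joined Axin2 and Sp5. Leaving out any 1 reprogrammed library left between 267 and 583 genes called in all. Tcf7l1 (log2 difference 0.10, SE 0.27) and Ctnnb1 (-0.03, SE 0.25) were not called.

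Of the genes known as repressed by Tcf7l1, 0 of 8 were called between these groups by limma and none by edgeR (list median -0.01), and 3 had an unadjusted p under 0.05. Msx2, a BMP and Wnt responsive homeobox gene, was the 1 of 10 other targets that rose, from 2.18 ± 1.20 CPM (SD, n = 9) in ESC to 11.5 ± 6.47 CPM (SD, n = 5). Sfrp2, among 7 antagonists, rose by 1.73, the receptors Fzd10 and Ror2, of 13, fell by 1.25 and 1.11, and the cofactor Pygo2, of 14, fell by 1.07.

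**Figure D4:**
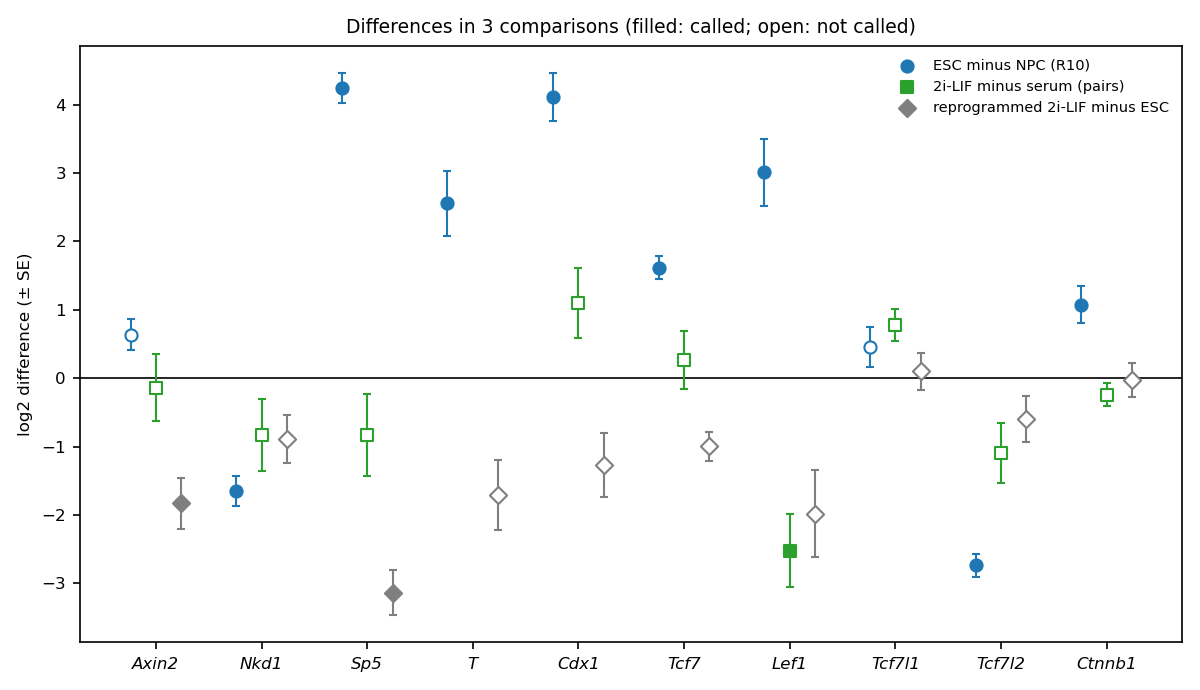
Log2 differences of the 10 genes in 3 comparisons: ESC minus progenitors in R10 (blue circles), 2i-LIF minus serum in pairs (green squares) and reprogrammed cells in 2i-LIF minus ESC (grey diamonds). Filled symbols were called and open ones were not; bars are SE. Axin2 and Sp5 are the called members in the comparison of reprogrammed cells with ESC, at -1.83 and -3.14, and Lef1 is the called member between media, at -2.52.

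The R9 series of OKMS and OKS cells from day 0 to day 20 gave no called member (0 of 10) in the limma F test over days, where 10.7% of 19357 genes were called (5.5% higher and 5.24% lower than day 0 at their largest difference). Day 0 cells were in progenitor medium, so day and medium cannot be told apart at the first step. At an unadjusted p under 0.05 there were 3, Nkd1, Cdx1 and Tcf7l2, a count given without the share of all genes at that p and not read as a result. On the recovered reads edgeR called 6 (Nkd1, Sp5, T, Cdx1, Tcf7l1 and Tcf7l2), where it called 4573 genes in all, against 2078 by limma. T and Cdx1 passed the filter (at least 1 CPM in 2 libraries) only through days 14 and 20, so their calls are a description. Of 84 reads of T and 40 of Sp5 in R9 OKS serum cells, 82 and 37 lay in the day 20 library. Leaving out day 10 limma called Nkd1, and leaving out day 14 Cdx1. The median of the members' largest differences from day 0 was 1.18, beside 0.63 for all genes. It includes T and Cdx1 and is a description too.

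Tcf7l2 in OKMS cells had 59.2 CPM at day 0 and 37.3, 45.9, 28.7, 15.5, 10.6 and 6.16 CPM at days 2, 4, 6, 10, 14 and 20. In OKS cells it had 50.6, 42.8, 56.3, 53.6, 95.9, 50.5 and 18.7 CPM on the same days. Both systems ended at their lowest value, and OKMS was below OKS on every day after day 0 (log2 difference from day 0 -2.23 at day 20, SE 0.60, limma F test adjusted p = 0.148). Nkd1 in OKMS cells had 14.8 CPM at day 0, 10.2 CPM at day 2, 0 CPM at days 4 and 20, and between 1.06 and 1.41 CPM between them. In OKS cells it had 30.4, 33.4, 12.4, 6.69, 22.3, 2.48 and 5.75 CPM from day 0 to day 20 (day 20 log2 difference -3.10, SE 0.84, limma F test adjusted p = 0.0706).

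Sp5, T and Cdx1, the targets with at most 1 read in any progenitor library, had at most 1 read in any R9 serum library before day 14. OKS cells at day 20 had 26.6 CPM of Sp5, 58.9 CPM of T and 15.1 CPM of Cdx1, whereas OKMS cells had 0, 0 and 2.46 CPM on that day and 0, 0 and 5.28 CPM at day 14. Cdx1 gave a log2 difference of 2.90 at day 20 (SE 0.83, limma F test adjusted p = 0.120), T 2.95 (adjusted p = 0.382) and Sp5 2.39 (adjusted p = 0.538). R10 OKS cells at day 18 had 6.40 CPM of Sp5, 42.3 CPM of T and 2.56 CPM of Cdx1, the last from 2 reads. The late OKS serum cells of both sets were thus the only reprogramming libraries with more than 2 reads of T.

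Lef1 did not pass the F test over days in R9 (limma adjusted p = 0.423). In R9 OKMS cells it had 0 CPM at day 0, then 3.39, 25.0, 5.46, 8.44, 8.44 and 2.46 CPM at days 2 to 20, so that day 4 (12 reads) alone stood above 8.44 CPM. In R10 OKMS cells it had 0.439 CPM at day 0 and 15.0, 25.5, 46.8, 6.79 and 4.45 CPM at days 2, 4, 6, 10 and 18. By gene reads, the R10 day 6 value was the highest Lef1 level of all 45 libraries, above the 33.9 CPM of the highest ESC library. Lef1 models that hold the start codon summed to at most 2.55 TPM in the R10 OKMS cells of days 2 to 6. In R10 ESC they summed to up to 6.19 TPM. OKS cells had at most 0.954 CPM from day 0 to day 10 in R9, then 2.48 and 7.90 CPM, and 1.17, 0.746, 6.83 and 16.6 CPM at days 0, 2, 6 and 18 in R10.

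Axin2 in R9 OKMS cells had 8.08 CPM at day 0, 4.52 CPM at day 2, 0 CPM at days 4 and 6, and 1.41, 4.22 and 1.23 CPM at days 10, 14 and 20. OKS cells kept 5.06, 9.36, 9.54, 8.03, 11.2, 0.827 and 7.90 CPM. No R9 library of this series had more than 11 reads of Axin2. In R10, OKMS cells had 23.7, 7.11, 2.13, 0.883, 0.849 and 2.97 CPM at days 0, 2, 4, 6, 10 and 18, and OKS cells 19.9, 10.1, 8.53 and 6.40 CPM at days 0, 2, 6 and 18. OKMS cells were thus below OKS cells at each shared day after day 0 except R9 day 14. Tcf7l1 ran between 28.3 and 113 CPM in the R9 series of days 2 to 20, against 22.9 and 33.7 CPM at day 0, with its largest difference at day 6 (1.52, SE 0.44, limma F test adjusted p = 0.190). Tcf7 ranged from 2.09 to 30.9 CPM (largest difference 0.84 at day 2, adjusted p = 0.816) and Ctnnb1 from 1288 to 3117 CPM (largest difference -0.61 at day 20, adjusted p = 0.260).

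**Figure D5:**
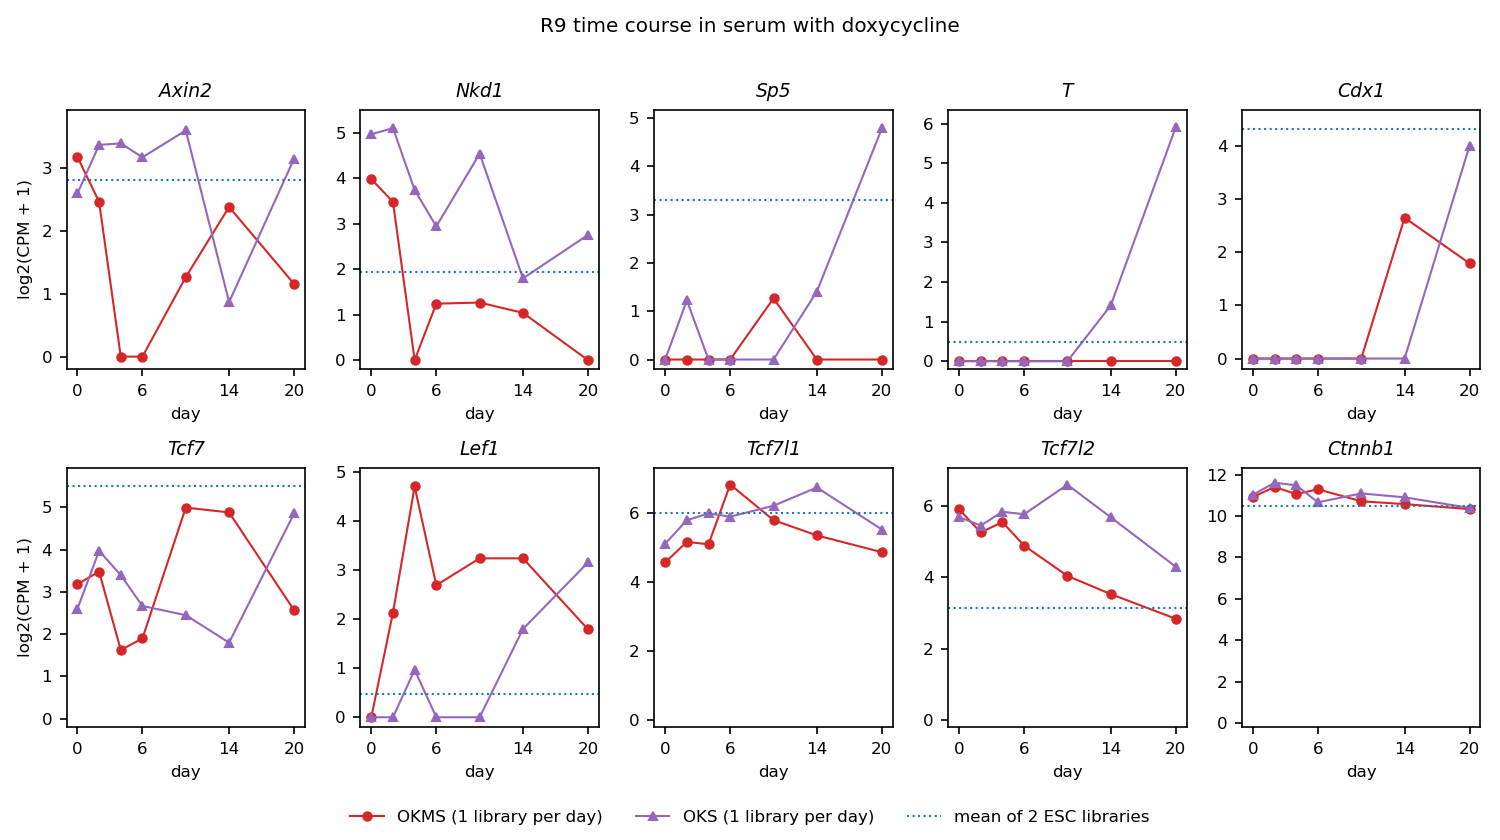
Levels as log2(CPM + 1) by day in R9 serum with doxycycline (day 0 in progenitor medium), for OKMS (red) and OKS (purple), 1 library per point; the dotted line is the mean of the 2 R9 ESC libraries. Tcf7l2 ends low in both systems, Lef1 has its highest value, 25.0 CPM, in OKMS at day 4, and Sp5 and T are high only in OKS at day 20.

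OKMS and OKS cells of the R9 series, compared over days 2 to 20 with day as a block, differed in 4 of 7 members that could be tested, where 18% of 14277 genes were called (6.93% higher and 11% lower in OKMS). Of all called genes 38.6% were higher in OKMS, a share that was 53.8% when libraries were centred on their median. Lef1 was higher in OKMS (8.87 ± 8.30 against 1.89 ± 3.10 CPM, SD, n = 6 each; log2 difference 1.98, SE 0.60, limma adjusted p = 0.0258). Nkd1 was lower (2.33 ± 3.89 against 13.8 ± 11.9 CPM, SD, n = 6 each; -2.31, SE 0.47, limma adjusted p = 0.00394). Tcf7l2 was lower (24.0 ± 15.8 against 52.9 ± 25.1 CPM, SD, n = 6 each; -1.26, SE 0.32, limma adjusted p = 0.0116), as was Axin2 (1.90 ± 2.01 against 7.80 ± 3.62 CPM, SD, n = 6 each; -1.72, SE 0.59, limma adjusted p = 0.0458).

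All 4 had overlapping ranges between the systems, and the days served as the only replicates. Axin2 rests on 10 reads over the 6 OKMS libraries and 40 over the 6 OKS libraries. The filter asked for at least 1 CPM in 6 libraries; Lef1 reached 1 CPM in 6 of 6 OKMS but 2 of 6 OKS libraries, and Nkd1 in 6 of 6 OKS and 4 of 6 OKMS libraries. These 2 thus passed only through the system in which they are high, and their calls are a description. No R9 OKMS library of days 2 to 6 had TPM on Lef1 models that hold the start codon. Nkd1 stayed called whichever day was left out and was the only one without day 10. Without day 2, 4 or 6 Nkd1 and Tcf7l2 were called, and without day 20 these and Lef1. None was called by limma without the day block, and edgeR called Nkd1 and Tcf7l2. The Axin2 call was lost in 11 alternatives in all, 7 of them those just given and 4 others, which were a pseudocount of 0.25 (log2 difference -2.42, limma adjusted p = 0.0636), quantile normalization (-1.47, 0.0852), no filter (-1.72, 0.0921) and median centring (-1.56, 0.0557). Over the 11 the Axin2 difference stayed between -2.42 and -1.38, beside -1.72. Cell types moved with the systems: mesenchymal markers (7 of 7 with a row) summed to between 82.5 and 611 CPM in OKMS and between 397 and 2498 CPM in OKS serum cells, progenitor markers to between 29.6 and 2820 CPM and between 68.3 and 5182 CPM, and stem cell markers to between 68.9 and 9472 CPM and between 86.8 and 8174 CPM. By day the stem cell markers were further apart, with 1169 CPM in OKMS and 129 CPM in OKS at day 6, 4927 and 87.0 CPM at day 10 and 9410 and 753 CPM at day 14, and 3 of the 7 were called higher in OKMS (list median log2 difference 1.54). Their part in the differences was not tested. Tcf7 (log2 difference 0.05), Tcf7l1 (-0.51) and Ctnnb1 (-0.13) were not called. In the same comparison 5 of 13 receptors fell in OKMS, among them Fzd4 by 1.89, Fzd8 by 1.83, Fzd1 by 1.58 and Fzd7 by 1.36, as did the ligands Wnt5a by 2.46 and Wnt9a by 1.95, 2 of 7. The antagonists Wif1, Sfrp1 and Dkk3, 3 of 6, fell by 2.12, 1.65 and 1.03, and Lgr6 fell by 2.45. Tle2, 1 of 15 nuclear cofactors, fell by 1.87 and Apcdd1, 1 of 9 other targets, by 1.26. Of 8 genes known as repressed by Tcf7l1, Nanog was higher in OKMS by 3.15 and Nr5a2 by 1.83, and of 6 cadherin and adhesion partners Cdh1 was higher by 3.54 while Cdh2 fell by 2.07 and Ctnna2 by 2.35. Of 16 genes of the destruction complex and signal transducers limma called 0 (3 at an unadjusted p under 0.05, 0 by edgeR).

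WT cells moved to FBS-LIF with doxycycline for 2 days measure the medium without factors. None of 6 members that could be tested was called by limma, none had an unadjusted p under 0.05 and edgeR called none, where 26.8% of 14688 genes were called. Axin2 had 21.5 and 23.4 CPM in serum and 15.9 and 14.3 CPM in progenitor medium, with no overlap (log2 difference 0.54, SE 0.29, limma adjusted p = 0.213). OKMS cells after the same 2 days had 7.11 CPM and OKS cells 10.1 CPM of Axin2, below every WT library of the R10 set. These 4 WT libraries had between 0.153% and 0.319% of reads on mitochondrial genes, against 1.51% and 1.64% in OKMS and OKS cells at day 2, and the part of RNA quality was not tested. R9 had 5.66 CPM of Axin2 in its 1 WT serum library, 4.52 CPM in OKMS cells and 9.36 CPM in OKS cells of that day. Ctnnb1 had 226 and 238 CPM in serum against 187 and 185 CPM (log2 difference 0.32, SE 0.19, limma adjusted p = 0.263). Lef1 was at 0 in both WT serum libraries, whereas R10 OKMS cells at day 2 had 15.0 CPM. In R9 the WT serum library had 2.83 CPM of Lef1 (2 reads) and OKMS cells at day 2 had 3.39 CPM (3 reads).

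Of the neighbouring lists in these 4 libraries, read against the 26.8% of all genes called, limma called 4 of 6 ligands, 3 of 6 antagonists, 2 of 6 other targets, 2 of 14 receptors, 2 of 15 nuclear cofactors and 1 of 16 genes of the destruction complex and signal transducers. Of 5 genes known as repressed by Tcf7l1 that could be tested, 2 fell and none rose, Esrrb by 1.55 and Nr5a2 from 1.37 CPM to 0. Nr5a2 passed the filter (at least 1 CPM in 2 libraries) only through progenitor medium, so its call is a description. Of 5 cadherin and adhesion partners, 3 rose, Ctnna2 by 4.32, Cdh2 by 1.049 and Ctnna1 by 1.03. Of 3 receptor turnover genes it called 0, with 1 at an unadjusted p under 0.05 and 1 called by edgeR. Sfrp1, a secreted Frizzled-related antagonist, rose from 7.82 ± 4.77 to 334 ± 191 CPM (SD, n = 2 each; log2 difference 5.23) and Wif1 by 3.58, while Sfrp2 fell by 2.92, 3 of 6 antagonists tested. Ccnd1, cyclin D1, fell from 439 ± 85.7 to 10.9 ± 3.74 CPM (SD, n = 2 each; log2 difference -5.24) and Myc by 4.04, 2 of 6 other targets. Of 6 ligands, Wnt5b rose by 3.35, Wnt9a by 1.63 and Wnt11 from 0 to 4.25 ± 2.29 CPM (SD, n = 2), and Wnt7b fell by 2.57. Wnt11 passed the filter only through serum. The list counts for these 4 libraries are descriptions, since they include genes that passed only through the group where they are high. Mesenchymal markers summed to 21.3 and 40.2 CPM in progenitor medium and to 106 and 264 CPM in serum (list median log2 difference 1.96, 2 of 6 called higher), and 3 of 7 progenitor markers were called lower. Their part in these differences was not tested. The number of genes called in this comparison was 3940, and leaving out any 1 of the 4 libraries left between 0 and 1141, with the lone library of a group assumed to vary like the other group; 1141 was without serum replicate 3 and 0 without each of the others. The WT serum pair differed by more than sampling noise (chi-square per degree of freedom 29.5), as did the WT progenitor pair (10.6).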

How the data were processed

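The deposited table gives gene CPM, per the file headers and the labels, and a second table gives transcript TPM from the authors; 13 of their columns match no sample and were not used. Reads were aligned with minimap2 2.24-r1122 to mm10, per the submitters' processing notes; strand use in counting is not given in the sources used here. Gene positions are from GENCODE M21 (GRCm38), and 20 gene names turned into numbers in the deposited table were kept as they stand. Every CPM value was a whole number of reads (100% within 0.02), so counts were recovered. limma 3.58.1 (R 4.3.3) tested log2(CPM + 1) with a trended eBayes prior, for genes at 1 CPM or more in as many libraries as the smaller group (2 in the time course), and adjusted p over all genes tested. edgeR 4.0.16's quasi-likelihood test on the recovered reads, the added count test, called 7599 genes between R10 ESC and progenitors, 5749 in R9, 1932 between media, 4573 over days, 3964 for serum on WT cells, 2322 between systems and 223 between reprogrammed cells and ESC. Alternatives were a pseudocount of 0.25, minima of 5 CPM or none, other scaling, other blocks and leaving out libraries; a further 4 were chosen after seeing the data. Fits were tested on simulated data, and Python 3.11.15 with pandas 2.3.3 made the summaries. Named are all 10 members, from each list at most the 4 called genes with the largest differences, and the 5 genes most like Axin2 and Tcf7l1, of which 1 is not reported here. Members and lists were chosen with earlier results of these data known. The number of reads behind a CPM sets its precision. No pair of same-group replicates agreed within sampling noise. Lists were described by counts and medians only.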

Additional observations from a re-analysis of the deposited data

Results flagged for a closer look

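In sets of 4 or more libraries, 40 sets of member values were searched for a single library far from the rest, and 6 were found. In 2 of the 6, T and Cdx1 in R10 progenitors, 3 libraries at 0 beside 1 with a single read give this result whatever the level. Sets at 0 throughout, such as Sp5 in R10 progenitors, could never be marked. The number found is therefore not set against a rate by chance. Of the 6, 2 came from the R10 R1 ESC library without an n number, with 118 CPM of Tcf7l1, the highest of the 7 ESC libraries, and 159 CPM of Ctnnb1, the lowest. That library also had the lowest mitochondrial share of the R10 ESC, 0.124%; the part of RNA quality in its values was not tested. R1 ESC replicate 1 had the highest Cdx1 level, 46.5 CPM. Among the 4 R10 progenitor libraries, WT replicate 2 had the highest T level, 0.318 CPM from 1 read, and the highest Tcf7l1 level, 53.0 CPM, and WT replicate 3 the highest Cdx1 level, 0.287 CPM, also from 1 read.

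A difference between systems was seen for Axin2 in the media pairs. It was higher in 2i-LIF than in serum in each of the 3 OKMS pairs, by 0.52 on the log2 scale on average, and lower in each of the 2 OKS pairs. The values rest on 1 to 11 reads of Axin2, and the R10 OKMS pair has 2 reads in each medium. This difference between systems was not tested. The stem cell minus progenitor difference of Lef1 was larger in R10 than in R9 by 3.40 on the log2 scale in the limma interaction test.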

How the results depend on the processing

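Of 891 values of single members under the alternatives, 790 kept direction and side of the threshold, 38 lost and 27 gained a call and 36 changed sign. The cause of changes was not tested, except that fewer genes pass a stricter minimum and leaving out libraries leaves fewer samples. In the media pairs the members called were 0 with a minimum of 5 CPM, where Lef1 is not tested, 0 within R10 pairs, 0 without OKS pairs and 2 with edgeR; Sp5 then gave -2.55 (adjusted p = 0.0473). In the time course they were 1 with a minimum of 5 CPM, 2 with median centring, 6 with edgeR, 1 with R10 libraries (Tcf7l2, -2.52) and 0 to 1 leaving out a day. Between OKMS and OKS they were 2 without a filter, 2 with a minimum of 5 CPM, 2 with edgeR, 0 without the day block and 1 to 4 leaving out a day. Between reprogrammed cells and ESC they were 4 with a pseudocount of 0.25, 0 in R9, 5 in R10, 5 in R10 with numbered ESC and 2 to 4 leaving out a library. In the interaction they were 0 with a pseudocount of 0.25 and 0 with the library without an n number as the only R10 ESC. In R9 ESC against progenitors 3 to 6 were called leaving out a library. The replicate block for WT cells in serum gave 0 members called, as without it; the pairing is a shared number only, over 2 pairs (correlation of the deviations of replicates 2 and 3 between groups 0.474 over 14688 genes).

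The changes of sign were these. With median centring, Tcf7 over days was -0.94, Tcf7l1 and Tcf7l2 in WT serum -0.090 and -0.12, and Ctnnb1 0.027 between systems and 0.036 against ESC. Quantile normalization gave Ctnnb1 0.64 over days and the Cdx1 interaction 0.028, and edgeR gave Tcf7l1 -0.026 and Tcf7l2 -0.029 in WT serum. Leaving out 1 library, R9 ESC minus progenitors ran from -0.53 (without O4G) to 0.62 for Axin2 and from -0.86 to 0.091 (without O4G) for Lef1. In WT serum the range was -0.45 to 0.23 for Nkd1, -0.26 to 0.39 for Tcf7l1 and -0.23 to 0.29 for Tcf7l2. Leaving out 1 pair between media gave -0.41 to 0.18 for Axin2 (0.034 without the R10 OKS pair) and -0.35 to 0.62 for Tcf7, and leaving out 1 day gave Ctnnb1 -0.61 to 0.53 over days and Tcf7 -0.56 to 0.52 between systems. Against ESC, Ctnnb1 ran from -0.14 to 2.17e-04. With the library without an n number as the only R10 ESC, Axin2 was -0.043 and Ctnnb1 -0.38, and the interactions of Axin2, Tcf7l1 and Tcf7l2 were -0.091, 0.21 and 0.46. Between media, Axin2 was 0.52 without OKS pairs and Tcf7 -0.77 in R10; over days Ctnnb1 was 1.27 in R10; against ESC, Lef1 was 0.25 in R9, and Tcf7l1 -0.060 and Ctnnb1 0.21 in R10.

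Median centring moved the median of all genes by 0.23 and 0.16 in the ESC comparisons of R10 and R9, -1.08 over days, -0.15 for WT serum and 0.15 between systems; quantile normalization moved the last 3 by -0.18, -0.16 and 0.11, and edgeR the time course by -0.11. Counts of all genes called moved by over 1.5 times in 22 of 103 fits: over days, 2078 became 4573 with edgeR, 1367 and 601 without days 2 and 20, 971 without day 20 of OKS and 318 without the system term; between media, 1832 became 1166 in R9, 188 in R10, 1210 without the R9 OKS pair and 801 without both OKS pairs; between systems, 2567 became 2 without the day block and 1686 without day 6; against ESC, 502 became 246 with a minimum of 5 CPM, 223 with edgeR, 110 in R9, 1438 in R10, 1896 in R10 with numbered ESC and 267 without R10 OKS; for WT serum, 3940 became 0 to 1141 leaving out a library; the interaction's 695 became 146 with the library without an n number as the only R10 ESC. Depth limits the low members: 1 read is 1.76 CPM in the R10 OKMS library in 2i-LIF. In the R9 OKS serum library of day 10 it is 2.23 CPM.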

Other observations

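In the limma F test over days of the R9 series, where 10.7% of all genes were called (5.5% higher, 5.24% lower), the lists around the members gave these calls. The list counts and medians are descriptions, since a gene silent at day 0 can meet the filter (at least 1 CPM in 2 libraries) through later days alone. Of 8 genes known as repressed by Tcf7l1, 6 rose and none fell (median of largest differences from day 0 5.19, all genes 0.63), led by Tcl1 at 5.92, Tbx3 at 5.39, Esrrb at 5.24 and Tfcp2l1 at 5.14, all largest at day 20; the list shares 3 genes with the stem cell markers. Of 6 antagonists, Sfrp1 rose by 5.72 and Dkk3 by 2.46, both largest at day 2, the step at which the medium changes. Of 14 receptors, Fzd1 fell by 4.73 and Fzd9 by 4.08 and Fzd5 rose by 3.93. Of 15 nuclear cofactors, Tle2, Bcl9l and Tle5 fell by 5.36, 2.17 and 2.14, and Ctbp2 rose by 1.72. Of 11 other direct targets, Bmp4, Mycn, Apcdd1 and Msx2 rose by 4.45, 4.42, 2.30 and 2.27, and Ccnd1 fell by 2.90. Of 16 genes of the destruction complex and signal transducers limma called 0, with 3 at an unadjusted p under 0.05 and 0 by edgeR. Of 6 cadherin and adhesion partners, Cdh2 fell by 4.24 and Jup rose by 2.54. Of 8 ligands limma called 0 (1 at an unadjusted p under 0.05, 2 by edgeR), and of 6 receptor turnover genes 0 (1 and 1).

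Among 10878 genes with a mean of at least 5 CPM in both sets, the ones whose log2(CPM + 1) ran most like Axin2 across libraries were Dab2ip (r = 0.75 over 22 R9 libraries, 0.72 over 23 R10 libraries), Sh3gl1 (0.71 and 0.79), the joint row of Cep85 and Sh3bgrl3 (0.69 and 0.73), Pid1 (0.66 and 0.76) and Smox (0.68 and 0.61). Among those most like Tcf7l1 were Myo10 (0.78 and 0.64), Ehd1 (0.57 and 0.57), Exoc6b (0.60 and 0.56) and Ctbp2 (0.56 and 0.56), a corepressor from the list of nuclear cofactors. No member was among the 5 genes most like either. These are descriptions across libraries that share a chemistry and differ in depth.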
